A study of Mus musculus with 8 samples.

Results

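The PAR-bZIP family of transcription factors (TFs) was followed here through 4 genes, Nfil3, Dbp, Tef and Hlf, in mouse primary hepatocytes (MPH) exposed to endoplasmic reticulum stress (ERS). The genes were chosen by name, and each H3K27ac region that reaches within 100 kb of a transcription start site (TSS) of one of them was taken, in 3 classes called H3K27ac UP, DOWN and unchanged. This gave 42 regions of 32196 in all, 10 around Nfil3, 6 around Dbp, 21 around Tef and 5 around Hlf. H3K27ac is an acetylation of histone H3 that marks active promoters and enhancers, and it was measured by ChIP-seq.

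MPH came from adult male WT mice, of the strain background C57Bl6 per the labels and C57BL/6J per the methods, and no group carried a transgene or a deletion. They were cultured without serum and exposed for 4 h to 1 µM thapsigargin, which blocks the calcium pump of the endoplasmic reticulum, or to vehicle (0.04% DMSO). Each treatment has 3 H3K27ac libraries, prepared per the methods from independent experiments, and 1 input library. The lists of regions give positions and classes and no value per library, so the depth behind each region and the spread between experiments are unknown, and no test between conditions or between the 4 genes could be made. UP and DOWN refer to thapsigargin against vehicle, as the authors' paired analysis with csaw classed them at an FDR of at most 0.05. The lists also leave out peaks whose bins pointed both ways, at a ratio of UP to DOWN bins between 0.5 and 2. Where no region is listed, the absence of a peak and a peak of that kind cannot be told apart. Of the markers of liver cells, 4 of 4 for hepatocytes (Alb, Ttr, Apoa1 and Krt18) have a TSS in an H3K27ac region, against 1 of 3 for Kupffer cells (Cd68), 0 of 3 for stellate cells and 0 of 3 for endothelial cells.

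DBP, TEF and HLF are activators with a proline- and acidic amino acid-rich domain beside their basic leucine zipper. NFIL3, also called E4BP4, has a related zipper but acts as a repressor, and it competes with the activators for the same site, the D-box. The circadian clock drives the family, through E-boxes bound by CLOCK and BMAL1 in Dbp and through elements bound by ROR and REV-ERB receptors (ROREs) in Nfil3. In liver, the activators drive genes of xenobiotic metabolism, among other outputs of the clock.

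The sequences upstream of the main TSSs are shown first, since the regions described below lie on or beside them. Each line gives the 250 bases before the TSS of the named transcript in GENCODE release M21, read 5′ to 3′ on the strand of the gene from the RefSeq copy of GRCm38.p6 (mm10), with matches to the motifs searched in capitals. Nfil3 (1 transcript) and Tef-206 start in H3K27ac UP regions, Tef-202 starts in an unchanged region, and Dbp-201 and Hlf-201 start in no listed region.
Nfil3: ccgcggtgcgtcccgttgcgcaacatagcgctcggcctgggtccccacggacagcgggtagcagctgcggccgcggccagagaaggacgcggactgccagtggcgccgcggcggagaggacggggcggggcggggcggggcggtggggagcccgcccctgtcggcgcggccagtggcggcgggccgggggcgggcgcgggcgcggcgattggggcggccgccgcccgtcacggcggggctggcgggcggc
Dbp-201: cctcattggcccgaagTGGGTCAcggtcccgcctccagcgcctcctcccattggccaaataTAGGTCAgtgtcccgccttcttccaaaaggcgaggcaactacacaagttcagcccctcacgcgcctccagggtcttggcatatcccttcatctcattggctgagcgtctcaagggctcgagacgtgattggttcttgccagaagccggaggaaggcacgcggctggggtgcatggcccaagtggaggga
Tef-202: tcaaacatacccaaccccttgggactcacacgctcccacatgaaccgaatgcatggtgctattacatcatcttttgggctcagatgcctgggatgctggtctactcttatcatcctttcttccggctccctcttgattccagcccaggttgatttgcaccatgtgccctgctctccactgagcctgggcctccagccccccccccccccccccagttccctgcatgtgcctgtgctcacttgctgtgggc
Tef-206: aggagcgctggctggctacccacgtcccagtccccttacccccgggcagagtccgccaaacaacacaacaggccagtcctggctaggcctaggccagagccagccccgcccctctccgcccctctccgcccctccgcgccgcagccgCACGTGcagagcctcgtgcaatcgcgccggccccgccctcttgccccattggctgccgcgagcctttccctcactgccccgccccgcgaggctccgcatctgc
Hlf-201: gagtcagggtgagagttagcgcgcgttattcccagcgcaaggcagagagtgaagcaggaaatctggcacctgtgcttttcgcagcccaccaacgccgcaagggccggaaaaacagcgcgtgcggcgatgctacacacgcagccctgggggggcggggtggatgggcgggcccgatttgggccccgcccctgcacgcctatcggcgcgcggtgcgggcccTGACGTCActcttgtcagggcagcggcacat

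The 250 bases before the Nfil3 TSS (chr13:52981074-52981323, minus strand) had a GC content of 82.8% and 44 CpG, more than 99.6% and 99.5% of the 132633 distinct TSSs, whose medians were 51.2% and 5. Those before Hlf-201 (chr11:90390896-90391145, minus strand) held 25 CpG, and those before Dbp-201 (chr7:45704838-45705087, plus strand) held 14. The 2 starts of Tef differed in this respect. The bases before Tef-202 (chr15:81802171-81802420, plus strand) held 3 CpG at a GC content of 57.6%, and those before Tef-206 (chr15:81810796-81811045, plus strand) held 23 CpG at 72.4%.

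Motifs were searched on both strands from 250 bases before to 50 after each TSS. These were the D-box as TTACGTAA or TTATGTAA, the E-box CACGTG, the cAMP response element (CRE) TGACGTCA, the composite site of ATF4 and CHOP TGATGCAAT, the UPRE TGACGTGG, the RORE as TAGGTCA or TGGGTCA, and the ERSE, which is CCAAT and CCACG with 9 bases between them. The CRE and the UPRE share the letters TGACGT. No D-box, ATF4/CHOP, UPRE or ERSE match lay in the window of any TSS of the 4 genes, and over all TSSs these matches were in 0.112% (TTACGTAA), 0.947% (TTATGTAA), 0.237%, 0.575% and 0.0663% of windows. Nfil3 had a RORE TAGGTCA at position 23 after its TSS, in the first exon, a match held by 2.39% of windows. Dbp-201 had both RORE forms, TGGGTCA at -234 and TAGGTCA at -189, and 4.0% of windows hold the former. E-boxes, which 6.17% of windows hold, lay near starts inside and outside the UP region of Tef. Tef-206 had an E-box at -103 and another at 9, and Tef-201 had an E-box at -138. Near the upstream start, a single E-box lay at -191 of Tef-203, -184 of Tef-209 and -161 of Tef-204, transcripts not annotated as protein-coding, whose TSSs lie in no region. Dbp-202 had E-boxes at -177 and -64, in an unchanged region, and Hlf-205 had an E-box at -53. Tef-207 had a RORE TGGGTCA at 22. Hlf-201 had a CRE at -31, against 1.57%.

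At their TSSs, 2 of the 4 genes lie in an H3K27ac UP region (Nfil3 and Tef), none lies in a DOWN region, and 3 lie in an unchanged region (Dbp, Tef and Hlf), since Tef starts in regions of both classes. Dbp is among the latter only through transcripts with a retained intron, and 2 genes lie in an unchanged region by protein-coding transcripts alone. Among the 12261 genes that start in some H3K27ac region, the shares were 21.4% for UP, 8.91% for DOWN and 73.7% for unchanged. Counts over 4 genes cannot be set apart from these shares. Nfil3 is the only member whose TSSs are all in UP regions, and it has a single annotated transcript.

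Nfil3, the gene of the repressor, lies on the minus strand at chr13:52967209-52981073. Its TSS was covered by an H3K27ac UP region of 11815 bp at chr13:52971187-52983001, which reached 1928 bp upstream and 9886 bp downstream of the TSS. This region took 71.3% of the gene, with 213 bp in the first of its 2 exons and 9674 bp in its intron. It ended 2165 bp before the second exon, which holds the coding sequence. Of the 5508 UP regions, 98.9% were narrower, and among the 2047 UP regions with a TSS, whose median width was 2136 bp, only 43 were wider.

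Upstream of Nfil3, 4 narrow unchanged regions of 405 to 659 bp lay at -4580, -13189, -20167 and -27167 bp from the TSS, where negative distances are upstream and are taken to the nearest edge. Beyond them lay 3 H3K27ac DOWN regions, of 1110 bp at -36566 bp in the body of Gm33424, of 2278 bp at -51524 bp in the body of Gm48336, and of 1295 bp at -86690 bp in no gene. Downstream, an unchanged region of 598 bp covered a TSS of Auh at 51240 bp, and the remaining DOWN region, of 2303 bp, lay within Auh at 87783 bp. Within 50 kb, Nfil3 thus had 1 UP and 1 DOWN region, and the other 3 DOWN regions were farther out. None of the 4 DOWN regions has the Nfil3 TSS as its nearest TSS.

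**Figure D1:**
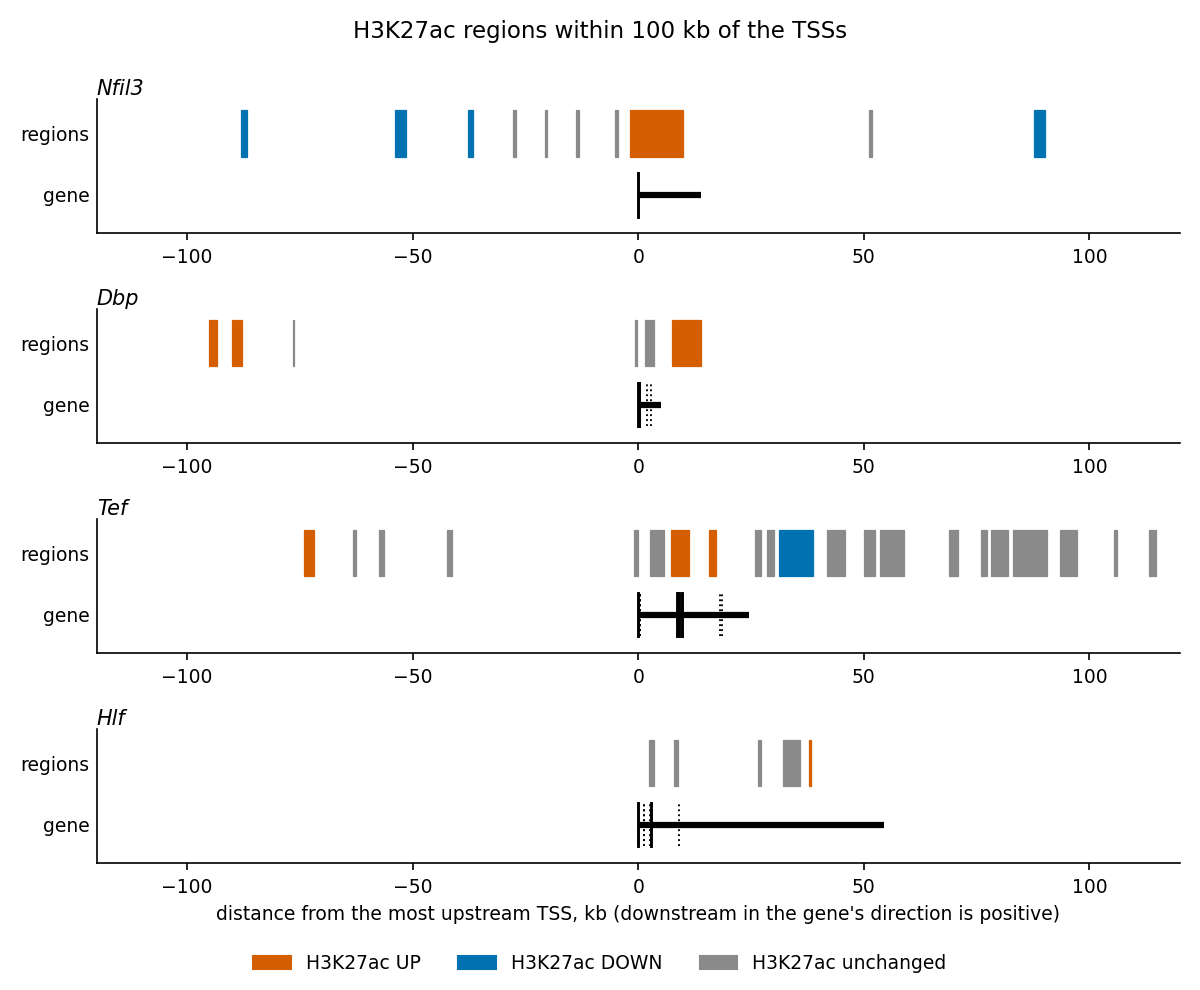
H3K27ac regions within 100 kb of any TSS of Nfil3, Dbp, Tef and Hlf, by distance in kb from the most upstream TSS of each gene, with the gene body as a black bar, TSSs of protein-coding transcripts as solid ticks and other TSSs as dotted ticks. Nfil3 has 1 wide UP region on its TSS and 4 DOWN regions farther out, whereas Dbp and Hlf have no DOWN region and Tef has 1.

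The UP region of Nfil3 held 4 D-box matches of the form TTATGTAA, all in the intron, at 364, 1280, 2065 and 4697 bp after the TSS. They are shown with 15 bases on each side, on the strand of the gene, with the match in capitals (TTACATAA is the same site on the other strand).
Nfil3 intron at 364: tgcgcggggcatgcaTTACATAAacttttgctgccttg
Nfil3 intron at 1280: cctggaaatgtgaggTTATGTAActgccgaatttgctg
Nfil3 intron at 2065: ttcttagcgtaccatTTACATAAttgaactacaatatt
Nfil3 intron at 4697: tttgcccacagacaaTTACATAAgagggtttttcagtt

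This was 0.339 match per kb, against 0.0393 per kb over all UP regions, of which 8.19% hold any such match. None of the 4 lay in the central 500 bp of the region. The UP region of 1800 bp at -93331 bp from Dbp held 1 such match, or 0.556 per kb, in its central 500 bp. The form TTACGTAA was in none of the 42 regions and in 0.696% of all regions. The UP region of Nfil3 also held 5 RORE TAGGTCA matches, 4 RORE TGGGTCA matches and 5 E-boxes, or 0.423, 0.339 and 0.423 per kb, against 0.101, 0.162 and 0.184 per kb over UP regions. It held no CRE, ATF4/CHOP, UPRE or ERSE match, which 3.4%, 4.65%, 4.39% and 0.309% of UP regions hold. These matches are letters in wide windows, and no binding was measured at them. The background of 5508 UP regions includes 3461 with no TSS, and UP regions with a TSS were not counted apart for motifs.

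Dbp, an activator with one of the steepest daily rhythms in liver, lies on the plus strand at chr7:45705088-45710203 and has 5 annotated TSSs. The 3 TSSs of its protein-coding transcripts (Dbp-201, Dbp-204 and Dbp-203) lie in no listed region. They fall in a gap of 1831 bp between an unchanged region of 358 bp, which ends -345 bp from the TSS of Dbp-201, and an unchanged region of 2011 bp at chr7:45706575-45708585, which begins 1487 bp after it. The latter holds 2 TSSs of transcripts with a retained intron (Dbp-202 and Dbp-205) and covers 39.3% of the gene. It also holds 2 E-boxes, both in the second intron of Dbp-201, at 2627 and 2740 bp from its TSS, which are shown here because the clock is known to act on Dbp through E-boxes.
Dbp intron at 2627: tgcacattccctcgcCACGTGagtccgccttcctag
Dbp intron at 2740: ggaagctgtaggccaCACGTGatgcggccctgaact

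Over all unchanged regions, 20.6% hold an E-box. The 3 UP regions within 100 kb of Dbp are each nearest to the TSS of another gene. The closest, of 6505 bp, began 7481 bp from the TSS of Dbp-201 and covered TSSs of Rpl18, which encodes a ribosomal protein, and Sphk2, which encodes a sphingosine kinase. It was wider than 95.2% of UP regions. The second, of 2187 bp at -87733 bp, covered TSSs of Fgf21, a hormone gene known to be induced by ATF4, and of Fut1, a fucosyltransferase gene. It held 2 ATF4/CHOP matches, the only ones in the 42 regions. The third, of 1800 bp at -93331 bp, had Fgf21 as its nearest gene. A narrow unchanged region of 236 bp lay at -76336 bp. The nearest DOWN region was -238134 bp from Dbp-201.

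**Figure D2:**
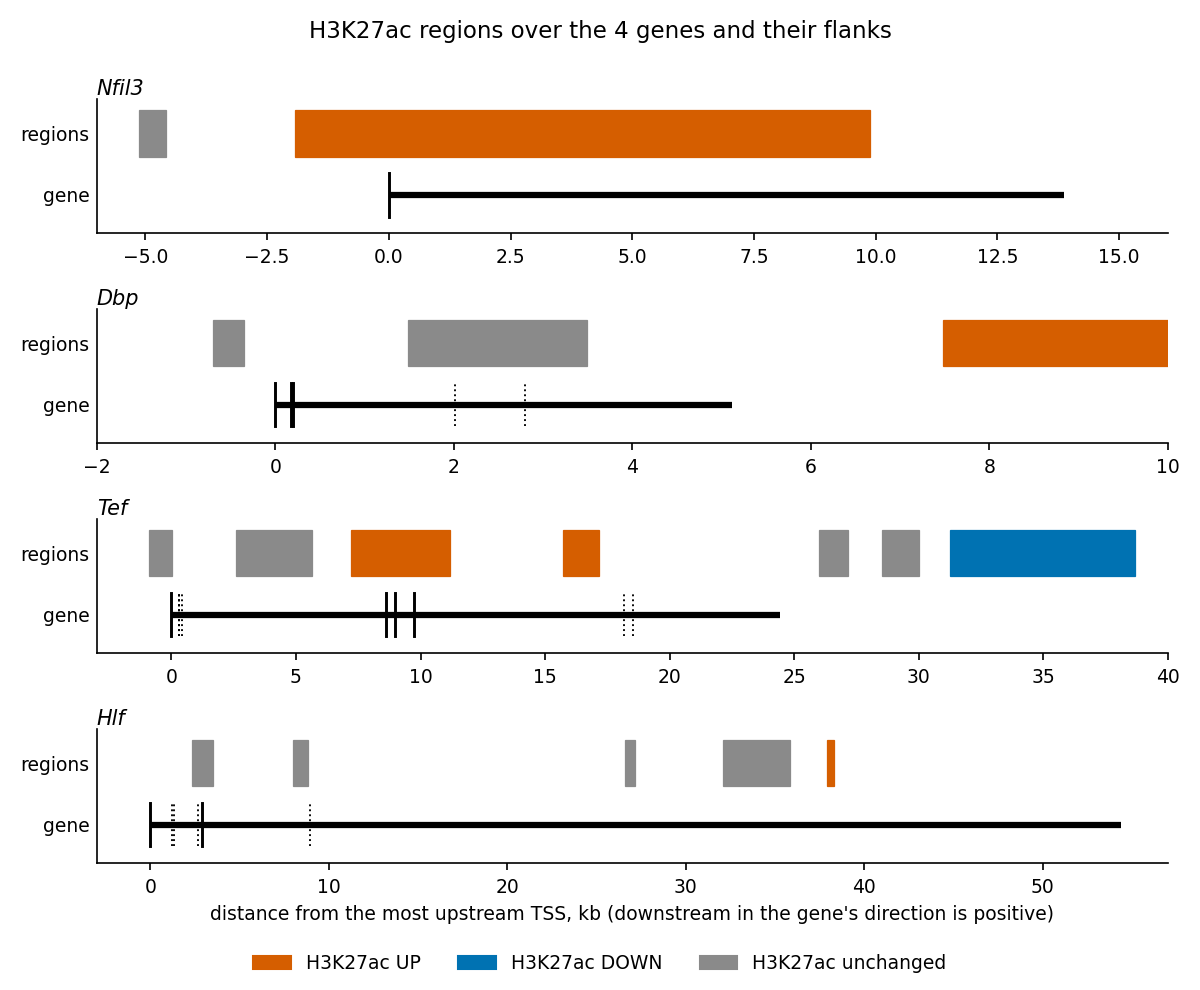
H3K27ac regions over the 4 gene bodies and their flanks, each panel on its own scale, by distance in kb from the most upstream TSS, drawn as in the map of the 100 kb windows. The UP region of Nfil3 runs from 1928 bp before to 9886 bp after the TSS, the protein-coding TSSs of Dbp and the first TSS of Hlf lie between regions or outside them, and the 3 internal protein-coding TSSs of Tef lie in an UP region.

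Tef lies on the plus strand at chr15:81802421-81826863 and has 10 annotated TSSs, 4 of them of protein-coding transcripts. Its most upstream TSS, that of Tef-202, was in an unchanged region of 937 bp at chr15:81801523-81802459. The 3 internal protein-coding TSSs, those of Tef-206, Tef-201 and Tef-210, were in an H3K27ac UP region of 3968 bp at chr15:81809622-81813589, wider than 86.5% of UP regions. The protein-coding starts of Tef were thus in different classes, with 7162 bp between the 2 regions. An unchanged region of 3040 bp lay between them, 2585 bp after the most upstream TSS. The unchanged class at the upstream start rests on Tef-202 alone, and its region ends 38 bp after that TSS. The TSSs of Tef-203, Tef-204, Tef-208 and Tef-209, a little farther downstream, lie in no region. When a region also had to hold 500 bp on either side of the TSS, Tef-202 no longer counted as unchanged. Of the 8942 protein-coding genes with several TSSs and a TSS in a region, 5.22% have TSSs in more than 1 class. This share was not matched for the number of TSSs. The UP region held 3 E-boxes, those before and after Tef-206 and before Tef-201, which is 0.756 per kb against 0.184 per kb over UP regions. Of the 5508 UP regions, 3461 hold no TSS, and those with a TSS were not counted apart for motifs.

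A second UP region of Tef, of 1454 bp, lay within an intron, -997 bp from Tef-205 and 15722 bp from the most upstream TSS. The third, of 2282 bp at -71810 bp, covered a TSS of Rangap1, which encodes the activator of the Ran GTPase. The single DOWN region began 6819 bp past the end of the gene and 31262 bp from the most upstream TSS. It spanned 7431 bp, wider than 92.1% of DOWN regions, and its nearest annotated gene was Gm8444. It held 1 D-box of the form TTATGTAA, which 11.4% of DOWN regions hold. Tef stands in a dense stretch, with more regions than 99.3% of the 12261 genes. Of its 17 unchanged regions, 12 lay past the end of the gene, and 3 covered TSSs of other genes, among them Rangap1, Zc3h7b and Tob2.

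Hlf lies on the minus strand at chr11:90336536-90390895 and has 6 annotated TSSs, 2 of them of protein-coding transcripts. The TSS of Hlf-201, its most upstream, lies in no listed region, and the nearest began 2354 bp into the gene. That region, unchanged and 1168 bp wide at chr11:90387374-90388541, held the TSS of the protein-coding Hlf-206 and that of Hlf-203. A most upstream TSS in no region was found for 16.2% of the 8942 protein-coding genes above. All 5 regions around Hlf lie within its body and cover 12.3% of it. Besides the region at the TSSs, 3 unchanged regions of 825, 552 and 3746 bp lay 8014, 26600 and 32100 bp into the gene. The single UP region, intronic and 37903 bp from the TSS of Hlf-201, was 415 bp wide, and only 5.72% of UP regions were narrower. The nearest DOWN region was 1372162 bp away.

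RefSeq places its starts close to these. The table of promoters has 1 start each for Nfil3, Dbp and Hlf, within 34 bp of a GENCODE TSS, and 2 for Tef. The Nfil3 start was in the UP region, and those of Dbp and Hlf were again in no region. The internal RefSeq start of Tef was in the UP region and its upstream start, at position 81802673, was in none, past the edge of the unchanged region that holds Tef-202.

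**Figure D3:**
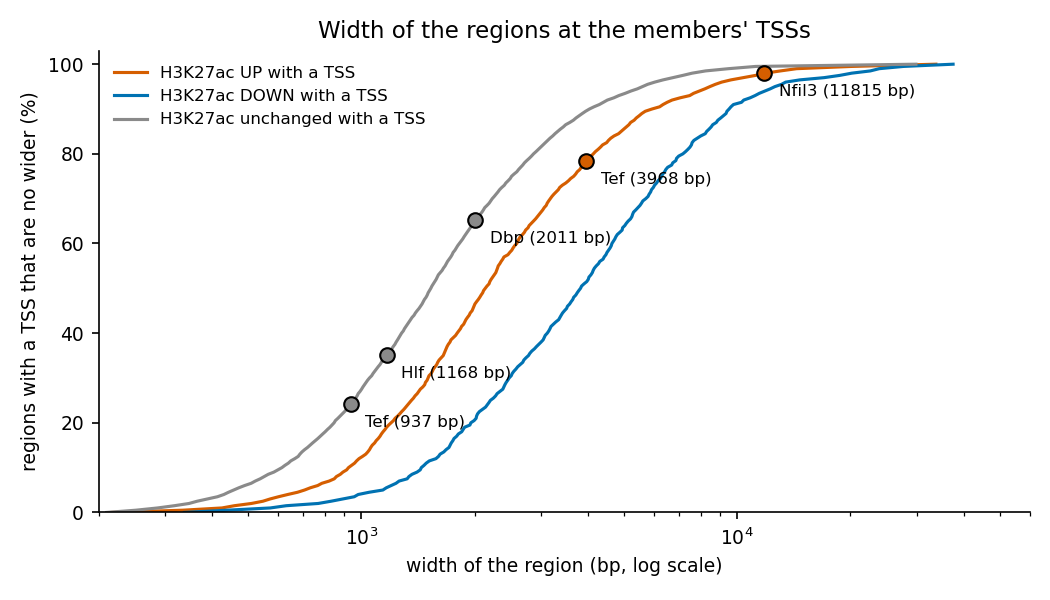
Width in bp on a log axis of the H3K27ac regions that hold a TSS, as cumulative curves per class, with the regions at the TSSs of the members as points. The Nfil3 region of 11815 bp sits near the top of the UP curve, and the regions at Dbp (2011 bp), Hlf (1168 bp) and the first TSS of Tef (937 bp) sit on the unchanged curve.

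The study measured H3K27ac at Nfil3 and Hlf by ChIP-qPCR, and its primers were placed on the genome to see which regions they sample. They are given 5′ to 3′.
Nfil3 promoter, forward: gcgcttgcccaaatacggaa
Nfil3 promoter, reverse: atcattcgagcccaggtccc
Hlf promoter, forward: gctgctgctctcatcgtcca
Hlf promoter, reverse: gcaggaaggctggtgacaga
Hlf enhancer, forward: gcgatagcaaggcacgggat
Hlf enhancer, reverse: tgttaggaggttaggggcgg

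The amplicon of the Nfil3 promoter (chr13:52982118-52982192, 75 bp) lay in the UP region, with its midpoint -1082 bp from the TSS. The amplicon of the Hlf promoter (chr11:90388069-90388204, 136 bp) lay in the unchanged region that holds Hlf-206, 2759 bp downstream of the TSS of Hlf-201. The amplicon of the Hlf enhancer (chr11:90364044-90364184, 141 bp) lay in the unchanged region of 552 bp, 26781 bp downstream of the same TSS. Neither amplicon of Hlf falls in its single UP region.

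When NFIL3 was set against the activators, the repressor gene had 1 UP, 4 DOWN and 5 unchanged regions within 100 kb. Dbp had 3, 0 and 3, Tef had 3, 1 and 17, and Hlf had 1, 0 and 4. The 3 activators had, between them, 7 UP regions (21.9% of 32), 1 DOWN region (3.12%) and 24 unchanged regions (75%), against 10%, 40% and 50% of the 10 regions of Nfil3. Over all regions, 17.1% are UP and 10.5% are DOWN. Among the 12261 genes, the median was 1 UP and 0 DOWN region, 96.5% had fewer DOWN regions than Nfil3, and 82.8% had fewer UP regions than Dbp or Tef. No DOWN region was listed within 100 kb for 55.1% of genes, as for Dbp and Hlf.

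The order of UP and DOWN around Nfil3 turned with the way of counting. By number there were more DOWN than UP regions, as for 21.7% of the 12261 genes, and 3.49% of the 12261 had at least 4 DOWN regions. Among the 2620 genes with a TSS in an UP region, these shares were 6.11% and 1.76%. Those genes have at least 1 UP region by choice, which lowers the former share. By width, Nfil3 had 11.8 kb of UP against 6.99 kb of DOWN, because its single UP region is wide. Within 10 kb of the TSS, Nfil3 had 1 UP region and no DOWN region, and the same held among the regions for which Nfil3 is the nearest gene. The activators had more UP than DOWN by number, at 7 against 1, and by width, at 18.6 against 7.43 kb. This is common, since 48.8% of the 12261 genes had more UP than DOWN by number and 51.6% by width. Among the regions nearest to the gene itself, Dbp kept no UP region, Tef kept 2 and Hlf kept 1. Regions of a locus share their chromatin and are not replicates, so these contrasts are descriptions of 4 loci.

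**Figure D4:**
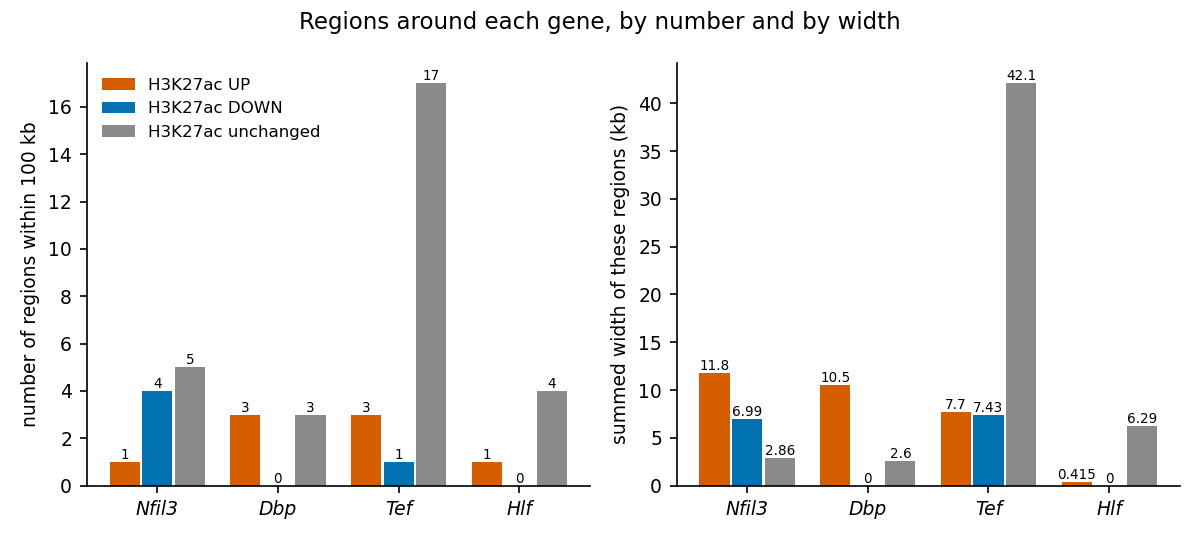
Number (left) and summed width in kb (right) of the H3K27ac UP, DOWN and unchanged regions within 100 kb of the TSSs of each gene, as bars that start at 0, with the value above each bar. Nfil3 has 4 DOWN regions against 1 UP region by number and 6.99 kb against 11.8 kb by width, and Tef has the most unchanged regions, 17.

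The regulators of the family were then placed by class at their TSSs. The clock activators Arntl, Clock and Npas2 all had a TSS in an unchanged region and none in a changed region. Of 8 clock repressors, Ciart, Cry1 and Per2 had a TSS in an UP region, of 1038, 2639 and 5669 bp. Cry2 had a TSS in a DOWN region of 5795 bp, Per1 and Bhlhe40 were in unchanged regions, and Per3 and Bhlhe41 were in none. Among the receptors that act on ROREs, Nr1d1 (REV-ERBα) was in an UP region of 5500 bp. Rora and Nr1d2 were in unchanged regions, and Rorb was in none. Within 10 kb of a TSS, Rora and Nr1d2 each had a DOWN region, as did 14.1% of the 21015 genes with a region that close. With 3 UP of the 6 clock repressors that have a region, against 21.4% of all genes, the numbers are too small to set this list apart.

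Of 11 genes known as targets of the activators or of NFIL3, 6 had a TSS in a region. Fgf21 was in an UP region, and Por, which encodes the electron donor of cytochromes P450, had TSSs in regions of all 3 classes. Alas1, the rate-limiting enzyme of heme synthesis, had TSSs in DOWN and unchanged regions. The nuclear receptor genes Nr1i3 and Ppara and the albumin gene Alb were in unchanged regions. Cyp2a4, Cyp2a5, Cyp2b10, Cyp7a1 and Pdxk were in none. Of 5 genes of xenobiotic metabolism, Cyp3a11 was in a DOWN region of 4128 bp and Fmo5 in one of 7126 bp. Gsta3 had TSSs in a DOWN and in an UP region, Adh1 in an UP and an unchanged region, and Ugt2b1 in an unchanged region alone. DOWN regions thus held a TSS of 3 of the 5 and UP regions of 2, against 8.91% and 21.4% of all genes that start in a region. All 5 also belong to the next list, which the study took from genes that ERS represses in MPH. Their share of DOWN is therefore not independent of how they were chosen.

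The longest list holds liver identity (LIVER-ID) genes whose repression by ERS the study describes as weaker in the liver of mice without NFIL3. All 28 genes of this list start in a listed region. DOWN regions held a TSS of 17 of them (60.7%), whereas this share was 20.3% for the remaining 528 LIVER-ID genes that start in a region and 8.91% for all genes. A TSS in an UP region was found for 3 of them (10.7%), against 23.5% and 21.4%. The study took the list from genes that ERS represses in MPH, so the excess of DOWN regions is not independent of how the genes were chosen, and it says nothing on NFIL3 itself. The genes at DOWN regions included the receptor genes Nr1i2 (PXR) and Nr1h4 (FXR), the TF genes Foxa2, Onecut1 and Nfe2l2 (NRF2), and the lipid genes Apoc3, Angptl4, Lpin1 and Lpin2. The others were Aldh1a1, Cdo1, Cmah, Cyp3a11, Egfr, Fmo5, Gm4951 and Gsta3. Those at UP regions were Adh1, Cnn3 and Gsta3. The widest region at a TSS had a median of 7165 bp over the 28 genes, against 5333 bp for the other LIVER-ID genes and 1850 bp for all genes, and the part of width in the share of DOWN was not tested.

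**Figure D5:**
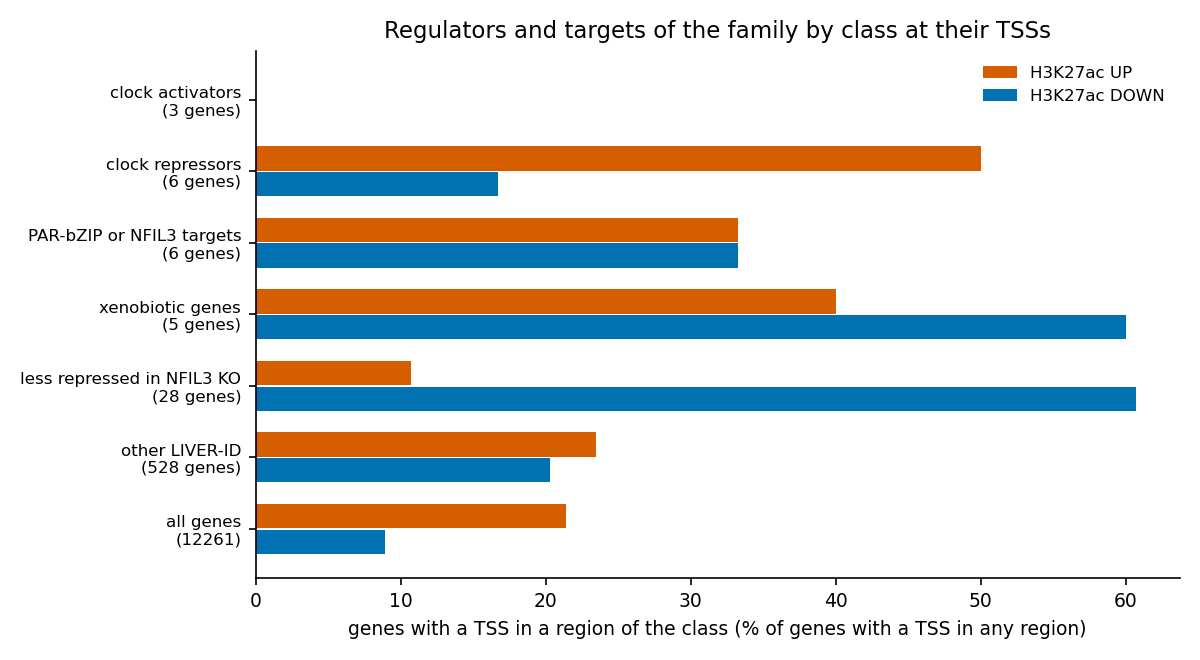
Share in percent of the genes of each list that have a TSS in an H3K27ac UP or DOWN region, out of the genes of that list that start in some region (number in brackets), with the other LIVER-ID genes and all genes below. The genes less repressed in NFIL3 KO liver stand at 60.7% DOWN and 10.7% UP, and the lists above them hold 3 to 6 genes each. The 5 xenobiotic genes are also among the genes less repressed in NFIL3 KO liver.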

How the data were processed

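MPH treated with thapsigargin or DMSO were profiled by ChIP-seq for H3K27ac. The deposited files used here are lists of UP, DOWN and unchanged regions, whose values are positions in base pairs on mm10. Per the labels and the methods, the authors mapped reads with Bowtie, removed duplicates and blacklisted regions, called broad peaks with MACS2 on pooled libraries, counted bins of 150 bp with reads extended to 200 bp, filtered them against input and tested them with csaw in a paired design. The authors' code names the pairs by mouse. Loess normalization centres the bulk of bins, and joining bins per peak gives wide regions a single class. Neither step could be repeated here, and the depth per library is unknown.

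Region starts in the lists were raised by 1 bp to give 1-based positions. TSSs came from 141767 transcripts of 55341 gene symbols in GENCODE release M21. A region lies at a gene where a TSS falls in it. Motifs and primers were matched exactly to GRCm38.p6, with amplicons up to 1000 bp. Genes named are the 4 members, genes with a TSS in a changed region within 100 kb of them, and those of the lists. Genes of other regions named for position (Auh, Gm33424, Gm48336, Gm8444 and those at unchanged regions of Tef) were added after the regions were seen. The members and lists were chosen with earlier results of these data known. Some genes of the lists and loci are not reported here. Counting functions were tested on simulated data. Python 3.11.15, numpy 2.4.6, pandas 2.3.3 and matplotlib 3.10.9 were used. The alternatives are other windows, region and TSS definitions, base pairs and region centres.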

Additional observations from a re-analysis of the deposited data

How the results depend on the processing

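The number of UP minus DOWN regions around Nfil3, -3 within 100 kb, was 1 within 10 kb, 0 within 50 kb and 1 among the regions nearest to Nfil3, and the difference in width was 4.81 kb in favour of UP. Here the cause is in the counts: the DOWN regions lie at -36566 bp or farther out, and the UP region is the widest. For Dbp, Tef and Hlf together, the difference of 6 was 3 within 10 kb, 3 within 50 kb, 13 within 200 kb, 3 among the regions nearest to the gene and 3 among regions with no TSS of another gene, and UP exceeded DOWN each time. The number of members with a TSS in an UP (2) or DOWN (0) region did not move when protein-coding transcripts alone were used, when a region also had to hold the 500 bp flanking the TSS on either side, or when a region within 1 kb was enough. The number in an unchanged region, 3, was 2 with protein-coding transcripts, 2 with the flanks required and 3 with the distance of 1 kb. Within 10 kb of a TSS, 21 of the 28 genes less repressed without NFIL3 had a DOWN region (75%). Among genes with a region within 10 kb, the share was 30.2% of the 560 remaining LIVER-ID genes and 14.1% of all 21015 genes. Neither of the 2 ATF4/CHOP matches near Fgf21 lies wholly in the central 500 bp of their region, and the nearer straddles its edge. No paired analysis was possible because the lists hold no value per library, and leaving out a replicate was not run for the same reason.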
